A study of Mus musculus with 4 samples.

Results

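The genes described here encode the initiation and elongation factors of cytosolic translation, measured in the left ventricle of wild-type and IL-18 null mice after transaortic constriction (banding, which loads the heart with pressure) or a sham operation. They were chosen by name: every probe set with a single gene symbol beginning with Eif or Eef and a digit, leaving out the sex-chromosome pair Eif2s3x and Eif2s3y, with 1 probe set per gene (the one with the highest mean log2 intensity). This gave 50 of the 12393 genes on the array. Of these, 44 reached 64 intensity units (log2 6, used as a floor) on at least 1 array (88%), against 5158 of all genes (41.6%), and 39 reached it on all 4 arrays.

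There were 4 groups with 1 array each, a sham and a banded group of either genotype (wild type and IL-18 null). IL-18 is an inflammatory cytokine, and the null mice were on a C57BL/6 background per the labels, whereas no strain was stated for the wild type. RNA was pooled before hybridisation, from 6 mice for IL-18 null banded and 5 for IL-18 null sham, and the series design gives 5 to 6 per group. Banding lasted 1 week in the IL-18 null mice. The labels did not state its length in wild type, nor the age or sex of any mouse. The stated aim was the role of IL-18 in gene expression during pressure-overload hypertrophy. With 1 pooled array per group there was no spread between replicates, so differences between arrays are given as sizes with no test of any single comparison. A gene was counted as higher or lower at 2-fold (a log2 difference of 1), after values below the floor were set to it, and a difference from a value below the floor is a lower bound.

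The targeted gene gave no check of the genotype labels, because Il18 did not reach the floor anywhere, at log2 3.19 and 2.89 in wild-type sham and banded and 3.04 and 3.07 in the null arrays. All 8 cardiomyocyte markers exceeded the floor on every array, with a summed intensity of 150367 to 186257, so each array held heart muscle RNA. These markers do not show which part of the heart it came from. The arrays differed in transcript coverage. In the Gapdh, Actb and dap controls, the 3′ probe sets exceeded the middle ones by a mean log2 4.74 ± 0.14 (SD over 3 transcripts) on the wild-type sham array and 0.72 ± 1.14 on its banded counterpart. On the null arrays the excess was 3.37 ± 1.14 for sham and 3.01 ± 1.47 for banded. For Gapdh alone, the middle probe set read 6.39 on wild-type sham against 14.06 on wild-type banded, and the 3′ probe set 11.00 and 13.90. The dap control is a bacterial sequence and not a mouse gene. Its 3′ probe set read 7.56 and 10.83 on wild-type sham and banded, and 10.69 and 10.70 on null sham and banded. Its middle probe set read 2.83, 10.52, 7.99 and 7.89 in that order. By the mean 3′ to 5′ difference of the 3 controls, wild-type banded alone stood apart, at 1.33 ± 0.97. It was 4.81 ± 1.08 on wild-type sham, 4.81 ± 1.64 on null sham and 4.84 ± 2.20 on null banded. Most of the large differences below turned on wild-type sham, which had the largest 3′ to middle difference but not the largest 3′ to 5′ difference. The part of this coverage in each member's value was not tested.

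Translation begins when the small ribosomal subunit, held by eIF3 and scanning factors, takes up the initiator tRNA from eIF2, is recruited to the mRNA cap by the eIF4 factors and moves to the start codon. eIF5 and eIF5B then allow the large subunit to join. eEF1A brings each aminoacyl-tRNA, eEF1B recharges it with GTP, eEF2 moves the ribosome along, and eIF5A helps it past difficult peptide bonds. In the heart, growth under load requires more protein synthesis, and the pathway is controlled at eIF2 by stress kinases, at eIF4E by binding proteins under mTOR, and at eEF2 by its own kinase.

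The promoters of the members were searched because genes of the translation apparatus are known targets of Myc, which binds the E-box CACGTG. RefSeq windows of 300 bases (250 before to 50 after each annotated start, assembly GRCm38.p6) were available for 40 members, 34 of them measured. The E-box stood in a window of 9 of the 34 (26.5%), against 535 of 4222 measured genes (12.7%) and 7.15% of all 32851 windows. The 9 were Eef2, Eif1b, Eif3a, Eif3f, Eif3k, Eif4a1, Eif4e, Eif4h and Eif5a. Eef2 and Eif3k belong to the genes with the largest differences below, and the chosen probe sets of Eif4e and Eif4h stayed within 2-fold in all comparisons of 2 arrays. Each stretch of 60 bases is shown 5′ to 3′ on the gene's own strand with the E-box in capitals, so that both kinds can be compared.
Eef2, chr10:81176561-81176620, plus strand, E-box from base -43: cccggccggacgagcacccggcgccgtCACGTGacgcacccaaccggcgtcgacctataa
Eif3k, chr7:28981900-28981959, minus strand, E-box from base -44: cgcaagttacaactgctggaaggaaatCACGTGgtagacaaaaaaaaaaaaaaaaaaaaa
Eif4e, chr3:138527177-138527236, plus strand, E-box from base -64: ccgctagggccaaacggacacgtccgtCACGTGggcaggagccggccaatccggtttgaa
Eif4h, chr5:134639473-134639532, minus strand, E-box from base -96: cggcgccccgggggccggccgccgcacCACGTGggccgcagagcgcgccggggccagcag

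Positions count back from the annotated start. The flanks differed between the 4 genes. The E-box reads the same on both strands and was counted once. Of the 8 genes that were at least 2-fold lower on wild-type sham than on both the wild-type banded and null sham arrays, 7 had a window, and 3 of these held the motif (42.9%: Eef2, Eif3k and Eif5a), against 6 of 27 other measured members (22.2%). The ETS core CCGGAAG, read on both strands, occurred in 14 of 34 measured members (41.2%) against 22.1% of measured genes and 8.86% of all windows, and was as common in the 7 (3) as in the other members (11 of 27, 40.7%). The other motifs searched on both strands were close to the share of measured genes or sparse: CCAAT 13 of 34 (38.2% against 43.1%), TATAAA 3 (8.82% against 9.4%), CGCATGCG 2 (5.88% against 5.05%), TGACGTCA 1 (2.94% against 3.86%) and TGATGNAA 0 (against 2.68%). These are matches of letters, not binding sites, and no motif share was tested.

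In wild type, 3 of 6 elongation factors and 3 of 11 eIF3 subunits were at least 2-fold higher on the banded array, by the probe set chosen for each gene. By the same choice, none of 9 genes of the cap-binding complex, its helicases and cofactors was. These shares by role were not tested against each other. Of 43 members compared, 10 were at least 2-fold higher on the banded array (23.3%, 2 of them as lower bounds) and 3 were lower (6.98%), with 30 within 2-fold. Over all measured genes the shares were 21.7% higher and 12.8% lower, so the share of higher members was near the background. In bulk tissue, fewer cells of a type and less RNA per cell cannot be told apart. The median difference was log2 0.16 over the members and -0.08 over all genes. Under quantile normalization the 2 medians became -0.13 and -0.42, and the share of higher among all genes called moved from 62.9% to 40.1%, whereas the members' count was 9 higher and 4 lower. Values below are log2 intensities in a fixed order: sham then banded for wild type, followed by sham then banded for the null.

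**Figure D1:**
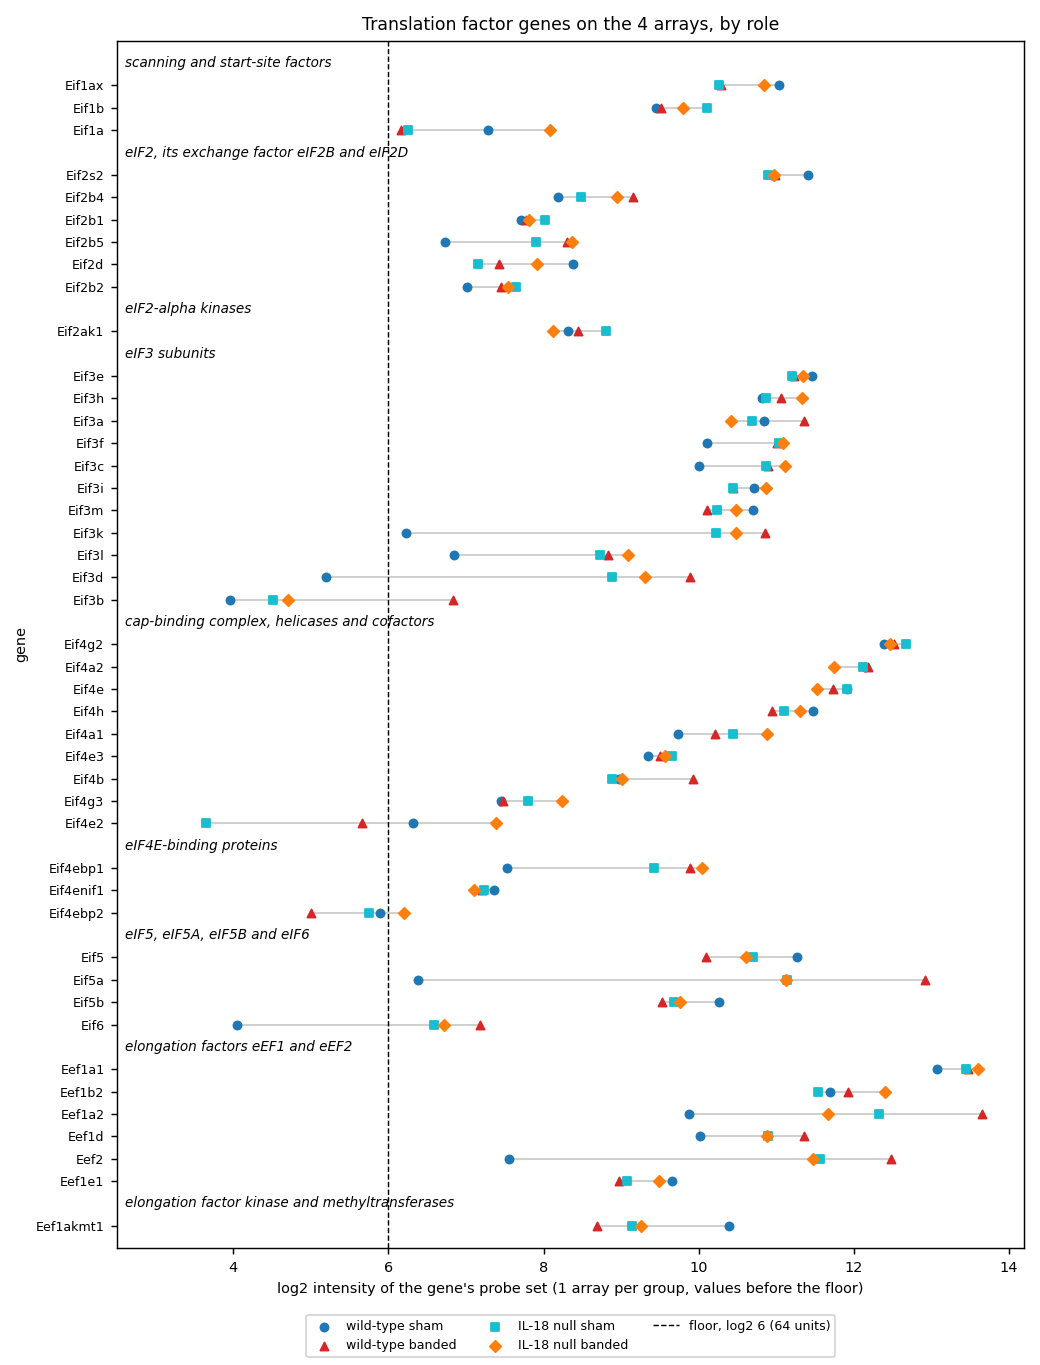
Log2 intensity of the 44 measured translation factor genes (1 line per gene, grouped by role) on the wild-type arrays (sham, blue circles; banded, red triangles) and the null arrays (sham, cyan squares; banded, orange diamonds), before the floor at log2 6 (dashed line). The long lines (Eif5a, Eif3k, Eif3d, Eef2, Eef1a2) have the wild-type sham point apart at the low end. Most genes of the cap-binding complex, helicases and cofactors have 4 points close together for the probe set plotted.

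The factors that carry tRNA and move the ribosome gave some of the largest differences. Eef2, the translocase, read 7.56, 12.47, 11.56 and 11.47. Wild-type sham was thus apart from the other 3 arrays, and the log2 difference with banding was 4.92 in wild type and -0.09 in the null. Eef1a2, the eEF1A isoform of adult heart and skeletal muscle, read 9.88, 13.65, 12.32 and 11.67, a difference of 3.77 in wild type and -0.65 in the null. It was 2.44 higher in null sham than in wild-type sham and 1.98 lower (-1.98) in null banded than in wild-type banded. Eef1a1, the isoform of most other tissues, read 13.07, 13.48, 13.45 and 13.60 and stayed within 2-fold throughout.

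The exchange factor of eEF1A differed between its subunits. Eef1d, the delta subunit, read 10.02, 11.36, 10.89 and 10.88, higher by 1.35 on the wild-type banded array and level between the null arrays (-0.01). The mean of all Eef1d probe sets gave 0.27 in wild-type banding, short of 2-fold. Eef1b2, the beta subunit, read 11.69, 11.92, 11.54 and 12.40, with 0.23 in wild type and 0.85 in the null, short of 2-fold in both. Eef1e1, known mainly as a scaffold of the tRNA synthetase complex, read 9.65, 8.97, 9.08 and 9.49. Of the 6 elongation factors 3 were 2-fold higher in wild-type banding (median 0.88) and none in null banding (median 0.07). In null sham 2 were higher than in wild-type sham, and 2 (Eef1a2 and Eef2) were lower in null banded than in wild-type banded. Over all genes 21.7% were higher in wild-type banding, 6.98% in null banding and 16.3% between the sham groups. Between the banded groups 7.74% of all genes were lower in the null.

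The enzymes that modify elongation factors were mostly too dim to read. Eef2k, the kinase that inhibits eEF2, lay below the floor on every array (3.23, 3.17, 3.19 and 2.63), as did the methyltransferase genes Eef1aknmt and Eef2kmt. Eef1akmt1, which methylates eEF1A, read 10.39, 8.68, 9.14 and 9.26. It ran the other way from most of the called members, highest on wild-type sham, with -1.71 in wild-type banding and -1.26 between the sham groups. Its 3 other probe sets were within 2-fold (one of them at 8.66, 8.56, 8.61 and 8.61), and without probe sets of shared type its wild-type difference was -0.10.

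Eif5a, the factor that carries the amino acid hypusine, showed the largest difference of any member, at 6.38, 12.92, 11.14 and 11.12. Wild-type sham was lowest, wild-type banded highest and the null arrays lay level in between, giving 6.54 in wild-type banding, -0.02 in null banding, 4.76 between the sham groups and -1.80 between the banded groups. Its probe set is of a kind that can match several transcripts. Another Eif5a probe set read 3.04, 8.38, 4.0 and 2.91, above the floor on wild-type banded only, a bound of 2.38 for the wild-type difference. Dhps and Dohh, the enzymes that make hypusine, were below the floor on all arrays.

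The factors around subunit joining split in direction. Eif5, which activates the GTPase of eIF2, read 11.27, 10.09, 10.71 and 10.61, lower by 1.18 (-1.18) on wild-type banded. That direction turned in another of its probe sets, at 9.33, 10.58, 10.25 and 8.88, and the mean of all its probe sets gave 0.13. Eif5b, the GTPase of subunit joining, stayed within 2-fold at 10.26, 9.53, 9.68 and 9.76 by its chosen probe set, with -0.73 in wild-type banding. A dimmer Eif5b probe set ran the other way, at 3.09, 7.11, 6.75 and 4.29. It gave bounds of 1.11 in wild-type banding and -1.11 between the banded groups, and the mean of all Eif5b probe sets gave 0.75 in wild-type banding. Eif6, which keeps the subunits apart, was below the floor on wild-type sham only, at 4.05, 7.18, 6.59 and 6.72, a bound of 1.18 in wild-type banding that became 0.97 under quantile normalization.

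The eIF3 complex bridges the mRNA, the eIF4 factors and the small subunit, and 3 of its 11 measured subunits were at least 2-fold lower on wild-type sham than on wild-type banded. Eif3k read 6.22, 10.86, 10.22 and 10.49, a difference of 4.64 in wild-type banding and 0.26 in the null. Eif3d, the subunit that can itself bind the cap, read 5.19, 9.89, 8.89 and 9.30, a bound of at least 3.89 in wild type and 0.42 in the null. Eif3l read 6.84, 8.82, 8.73 and 9.09, a difference of 1.98 in wild type and 0.36 in the null. In these 3 wild-type sham alone was low and the remaining arrays lay close together. Eif3k and Eif3l are partners in a peripheral pair of the complex.

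By their chosen probe sets the other subunits varied less. Eif3e read 11.46, 11.23, 11.20 and 11.34, and Eif3h read 10.81, 11.06, 10.86 and 11.33. Eif3f read 10.10, 11.01, 11.03 and 11.08, with wild-type sham lowest, and Eif3c likewise differed by 0.90 in wild-type banding and 0.24 in the null, short of 2-fold. Other Eif3c probe sets ran the other way in wild-type banding, by -0.82 and -0.44, and another exceeded the floor on wild-type banded only (7.05). The mean of all Eif3c probe sets gave 0.33. The core subunit Eif3a ran 10.84, 11.35, 10.69 and 10.42, and Eif3b exceeded the floor on wild-type banded only (6.83). Of the eIF3 genes 3 of 11 were 2-fold higher and none lower in wild-type banding (median 0.83), 3 of 10 between the sham groups (median 0.46), and none in null banding (median 0.26) or between the banded groups (median 0.11). Over all genes 21.7% were higher and 12.8% lower in wild-type banding. The all-gene shares of higher were 16.3% between the sham groups, 6.98% in null banding and 5.7% between the banded groups.

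Among eIF2 and its exchange factor, 1 gene passed 2-fold in wild-type banding. Eif2b5, the catalytic subunit of eIF2B, read 6.72, 8.30, 7.90 and 8.37, a difference of 1.58 in wild type and 0.47 in the null. Its partners Eif2b1 (7.71, 7.77, 8.01 and 7.82), Eif2b2 (7.01, 7.45, 7.64 and 7.55) and Eif2b4 (8.19, 9.15, 8.48 and 8.95) stayed within 2-fold, and Eif2b4 came closest at 0.96. Eif2s2, the beta subunit of eIF2, read 11.41, 10.99, 10.89 and 10.97 by its chosen probe set. A second one was low on wild-type sham, at 9.76, 11.36, 11.06 and 11.60, a difference of 1.61 in wild-type banding and 1.30 between the sham groups, and it stands for the gene when probe sets of shared type are left out. Another differed by 1.22 in wild-type banding, and 2 more stayed within 2-fold. Eif2d, which can deliver initiator tRNA without eIF2, read 8.38, 7.42, 7.15 and 7.92 and was lower in null sham than in wild-type sham (-1.23). Of its 3 other probe sets 2 were below the floor on every array, and the one measured was lowest on wild-type sham instead, at 3.47, 7.84, 7.0 and 7.63. Of the stress kinases that inhibit eIF2, only Eif2ak1 was measured (8.31, 8.44, 8.81 and 8.12), and Eif2ak2, Eif2ak3 (3.72, 2.93, 3.17 and 3.20) and Eif2ak4 were below the floor on every array.

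Scanning factors gave the one called response of the null hearts that was measured on both of its arrays. Eif1a read 7.28, 6.16, 6.26 and 8.08, with -1.12 in wild-type banding and 1.83 in null banding, and it was the only member 2-fold lower in one genotype and 2-fold higher in the other. Its second probe set cleared the floor on null banded alone (5.66, 4.03, 4.58 and 6.21). Eif1ax, the X-linked paralogue, read 11.04, 10.29, 10.26 and 10.84 by its chosen probe set, with the same order of signs (-0.75 and 0.58) within 2-fold. A second Eif1ax probe set, at 9.14, 7.97, 8.41 and 8.24, did not share that order. It was lower in both genotypes, by -1.17 in wild-type banding, past 2-fold, and by -0.18 in the null. Eif1b read 9.45, 9.51, 10.11 and 9.79.

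The cap-binding complex, with its helicases and cofactors, had 9 genes. By their chosen probe sets, none of the 9 passed 2-fold in wild-type banding (median 0.04) or between the sham groups. In null banding and between the banded groups 1 did (Eif4e2). Over all genes 21.7% were higher and 12.8% lower in wild-type banding, and 16.3% and 6.29% between the sham groups. In null banding 6.98% were higher, and between the banded groups 5.7%. Other probe sets of several of these genes did pass it, as given below. Eif4e, which binds the cap, read 11.92, 11.73, 11.92 and 11.53. A dimmer Eif4e probe set read 7.95, 5.57, 6.97 and 6.59, a bound of -1.95 in wild-type banding, and the mean of all its probe sets gave -1.10. Eif4g2, a scaffold of cap-independent initiation, read 12.39, 12.52, 12.67 and 12.46, and its 2 other measured probe sets were also within 2-fold (11.87, 11.84, 12.01 and 11.88, and 10.91, 11.07, 11.13 and 11.28), with 1 more below the floor on every array. The helicase Eif4a2 read 12.14, 12.18, 12.12 and 11.75. Eif4h, a helicase cofactor, read 11.47, 10.94, 11.10 and 11.31. By these chosen probe sets the 4 genes kept within 1 log2 unit over all 4 arrays. Eif4e2, a cap-binding repressor, was near or below the floor on all arrays but null banded (6.31, 5.66, 3.64 and 7.39), a bound of 1.39 in null banding.

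The binding proteins that hold back eIF4E gave 1 large difference. Eif4ebp1, released from eIF4E when mTOR phosphorylates it, read 7.53, 9.89, 9.42 and 10.04, a difference of 2.37 in wild-type banding, 0.62 in the null and 1.90 between the sham groups. Wild-type sham was again apart. A second Eif4ebp1 probe set read 9.38, 9.01, 8.64 and 9.85, without that low point, and the mean of all its probe sets gave 0.45 for wild-type banding. Eif4ebp2 exceeded the floor on null banded only (6.20), and Eif4enif1, the eIF4E transporter, was level (7.36, 7.21, 7.23 and 7.10).

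In the null hearts, few members differed by 2-fold with banding. Of 43 compared, 2 were 2-fold higher (4.65%, Eif1a and, as a bound, Eif4e2), against 6.98% of all genes, and none was lower, against 2.53%. The median difference was 0.14 over members and 0.08 over all genes, and quantile normalization moved the all-gene share of higher among calls from 73.4% to 63.1%. The signs of the 2 banding differences were opposite for 24 of the 42 members compared in both genotypes and the same for 18. Signs were not counted over all genes, so these counts have no background and do not show a trait of the members. The difference between the banding responses (null minus wild type) was at least 2-fold negative for 10 of 44 members (22.7%) and positive for 7 (15.9%), against 21% and 20.4% of all genes, with a median of -0.25 against 0.16. Under quantile normalization the all-gene share of positive among these calls moved from 49.2% to 61.7%, and under cyclic loess to 38.1%. The largest were Eif5a (-6.55), Eef2 (-5.01), Eef1a2 (-4.42), Eif3k (-4.37) and, as a bound, Eif3d (-3.47). On the positive side Eif1a had 2.95.

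**Figure D2:**
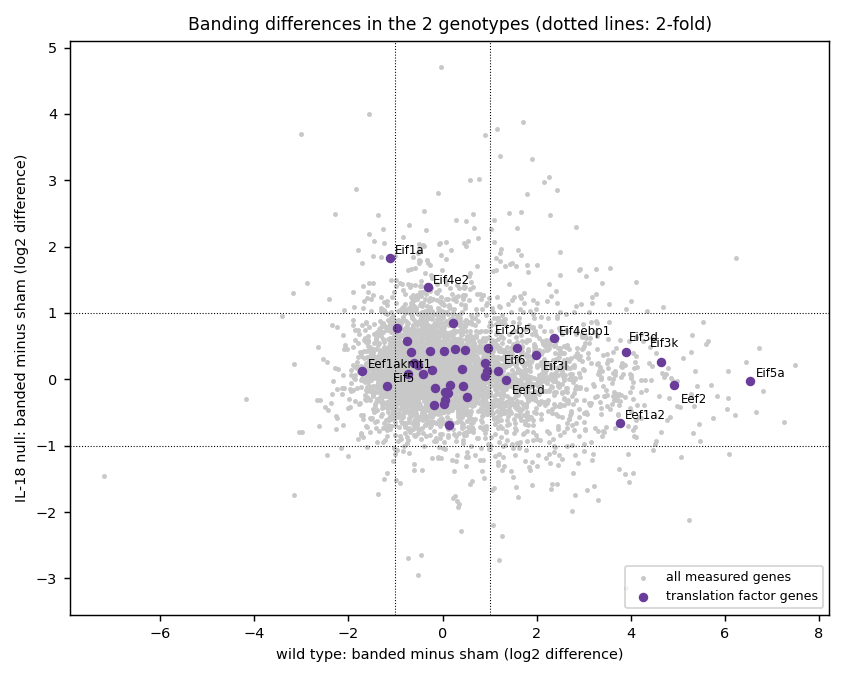
Log2 difference with banding in wild type (horizontal) against that in IL-18 null (vertical), for all measured genes (gray) and the translation factor genes (purple), with dotted lines at 2-fold. Eif5a, Eef2, Eif3k, Eif3d and Eef1a2 lie far right with null differences between -0.65 and 0.42, and Eif1a alone lies beyond both lines in opposite directions.

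Between the sham groups, 8 of 42 members were 2-fold higher in the null (19%, against 16.3% of all genes) and 3 lower (7.14%, against 6.29%), with medians of 0.28 and -0.07. Quantile normalization and cyclic loess moved the all-gene share of higher among calls from 72.1% to 51.2% and 80.8%, and the members' counts to 7 and 11 higher. The 8 were Eef1a2, Eef2, Eif2b5, Eif3d, Eif3k, Eif3l, Eif4ebp1 and Eif5a, with differences from 1.18 for Eif2b5 (0.82 under quantile normalization) to 4.76 for Eif5a, and the lower ones were Eef1akmt1, Eif1a and Eif2d. All 8 were also among the 10 higher in wild-type banding, but wild-type sham is the baseline of both comparisons, so the 2 counts are not independent. Of the 18 members whose values spanned 2-fold or more after the floor, 12 were lowest on wild-type sham (66.7%), against 48.8% of the 2192 such genes overall.

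The banded groups were compared without wild-type sham. Between them, 2 of 44 members were higher in the null (4.55%, Eif1a and Eif4e2, against 5.7% of all genes) and 3 were lower (6.82%, Eef1a2, Eef2 and Eif5a, against 7.74%). Eef2 was just past the threshold at -1.0 (-0.97 under quantile normalization), Eif5a was at -1.80 and Eef1a2 at -1.98. Just inside it were Eif3a (-0.93) and Eif4b (-0.91). The medians were 0.10 over members and 0.11 over all genes.

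**Figure D3:**
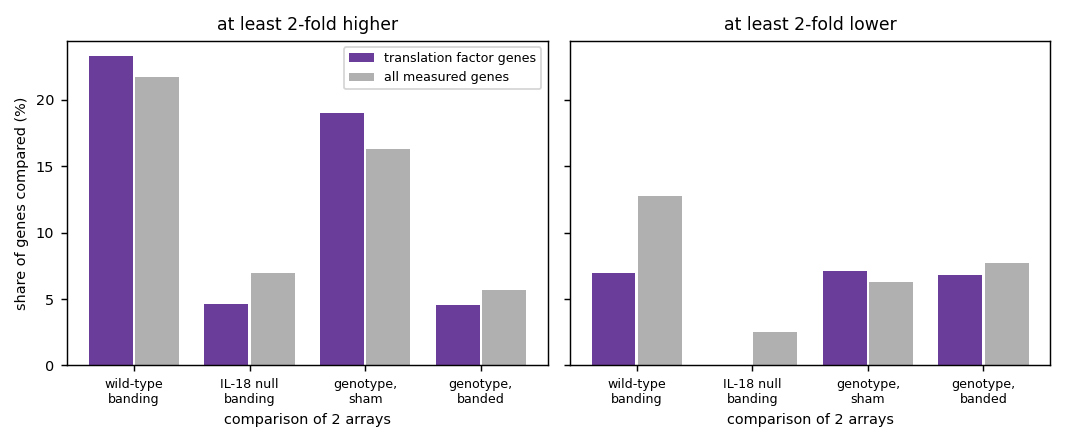
Share of translation factor genes (purple) and of all measured genes (gray), in percent of genes compared, that were at least 2-fold higher (left) or lower (right) in each comparison of 2 arrays. The purple and gray bars stand at like heights in most comparisons, 23.3% against 21.7% for higher in wild-type banding, and differ most for lower in wild-type banding, 6.98% against 12.8%.

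The probe sets that the choice of 1 per gene set aside gave a separate reading of the same arrays. Of 64 such probe sets, 37 in 21 genes reached the floor. In wild-type banding 13 of 36 were 2-fold higher (36.1%) and 2 lower (5.56%), against 32.2% and 8.38% of the other probe sets of all genes. Between the banded groups none of 37 was higher and 8 were lower (21.6%), against 3.73% and 18.4%. Of the 13 members called in wild-type banding, 5 had another measured probe set, 9 in all: 1 differed the same way past 2-fold (Eif5a), 1 the opposite way (Eif5) and 7 stayed within 2-fold.

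Some genes called level by their brightest probe set were not level in others. Eif4a1, the main eIF4A helicase, read 9.74, 10.21, 10.44 and 10.88, while its other probe sets read 5.38, 11.01, 4.91 and 4.80, and 2.54, 10.42, 2.66 and 2.81. Both exceeded the floor on wild-type banded only, as the second Eif5a probe set did. Eif4b, the eIF4A cofactor, read 8.98, 9.92, 8.88 and 9.01, and its others 7.80, 10.26, 9.49 and 8.77, and 7.78, 8.94, 8.58 and 8.83. Wild-type sham was lowest in both of the others. A second Eif4h probe set (6.56, 9.19, 8.74 and 8.92) was low on wild-type sham alone. In the controls wild-type banded had the smallest 3′ excess by both measures, 0.72 over the middle and 1.33 over the 5′ probe sets. Wild-type sham had the largest over the middle (4.74), and over the 5′ probe sets it stood at 4.81 beside 4.81 and 4.84 on the null arrays. Where each probe set lies along its transcript was not analysed here.

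**Figure D4:**
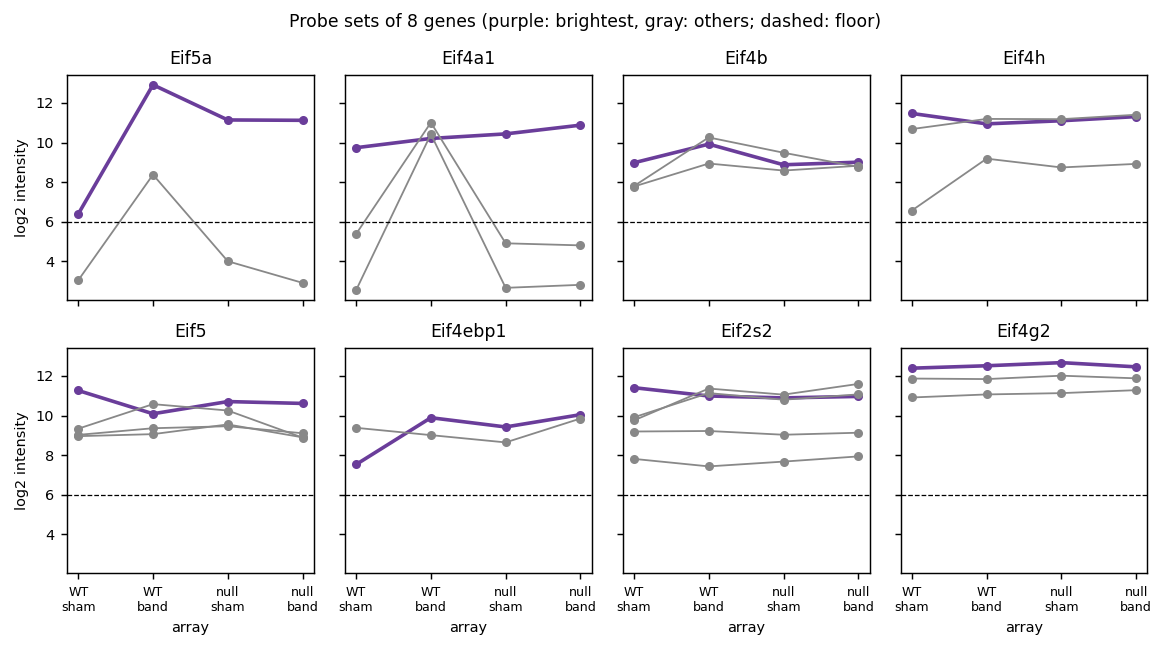
Log2 intensity of each probe set of 8 translation factor genes on the 4 arrays, with the probe set used for the gene in purple, others in gray and the floor dashed. In Eif4a1 the gray lines peak on wild-type banded (11.01 and 10.42) where the purple line is level, in Eif4ebp1 the gray line lacks the low wild-type sham point, and in Eif4g2 all lines are level.

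Genes that work beside these factors were counted by list. Among 16 measured tRNA synthetase and synthetase-complex genes, 7 were higher and 1 lower in wild-type banding and 1 of 15 was higher in null banding; among the higher was Gars (6.82, 9.50, 8.76 and 9.04). Of 5 measured poly(A)-binding genes 2 were higher in wild-type banding, Pabpc1 (8.91, 10.88, 9.88 and 10.60) and Pabpc4 (10.47, 11.67, 11.61 and 11.28), and none in the null. Of 6 termination and recycling genes 1 was higher and 1 lower in wild type, Gspt1 (7.19, 8.88, 8.91 and 8.46) and Abce1 (9.97, 8.85, 9.13 and 9.56). Of 9 TOR-pathway genes 2 were higher in wild-type banding, both as bounds: Ddit4 (3.80, 8.84, 6.02 and 7.13) and Tsc2 (2.54, 8.16, 6.35 and 5.39). The 1 lower was Rps6 (7.58, 6.49, 6.75 and 7.60). In null banding 1 of 8 was higher, Ddit4 at 1.11. Mtor itself was level at 8.23, 8.29, 7.85 and 8.24. Of 4 measured genes of the stress response around eIF2 1 was higher in wild-type banding, Atf4, and 1 was lower, Impact (8.80, 7.61, 8.40 and 8.19). Atf4, whose translation rises when eIF2 is inhibited, read 7.71, 9.74, 9.77 and 9.68. Of 5 mitochondrial translation factors 2 were higher in wild type and none in null banding. The background for these counts is that of each comparison given above, 21.7% higher and 12.8% lower in wild-type banding and 6.98% and 2.53% in null banding.

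Markers of other cells also differed between the arrays. In the order used above, 7 of 8 fibroblast markers exceeded the floor on every array (Tcf21 did not), with summed intensities of 7169, 21797, 11466 and 27785. Of 8 macrophage markers 5, 7, 6 and 7 did, with sums of 2299, 3201, 1902 and 6932. Of 8 endothelial markers 6, 8, 6 and 6 did, with sums of 2649, 4737, 3930 and 3058 and with Pecam1 and Tie1 below the floor except on wild-type banded. At 2-fold, 5 of 7 fibroblast markers were higher with banding in each genotype, while Pdgfra differed by -0.61 in wild type and -0.84 in the null. Of the endothelial markers 4 of 8 were higher in wild-type banding (median 1.62), 0 of 6 in null banding (median -0.24) and 4 of 6 between the sham groups (median 1.37). The part of these markers in the members' values was not tested.

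A model across all genes gave no further call. limma's additive fit, with surgery and genotype as terms over the 4 arrays, called 0 of 44 members at an adjusted p of 0.05 for either term, and 0% of 5158 genes for banding and 0% for genotype. The smallest adjusted p of a member was 1.00 for both (Benjamini-Hochberg over all genes), and 0 members had an unadjusted p under 0.05, against 98 genes (1.9%) for banding and 13 (0.252%) for genotype. The banding coefficient of Eif5a was 3.26 with a standard error of 1.58, and that of Eef2 2.42 with 1.24. After quantile normalization the same fit called 1 member for banding, Eif5a, with a limma adjusted p of 0.00253. That fit pooled the variance over all genes, with 5243 total degrees of freedom against 4.82 in the fit above, so the p rests on the pooled variance and not on a spread between these arrays. The fit had 1 residual degree of freedom, and its residual is the difference between the banding responses, not a spread between replicate hearts.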

How the data were processed

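Total RNA was labelled with biotin and hybridised to 1 array per group. The authors deposited 1 table of linear intensity values for 22690 probe sets, which, per the submitters' processing notes, came from GCRMA. Its version and settings and any later scaling or centring are unknown, as the sources used here do not state them, and scanner files were not used here. The median intensity over all probe sets was 13.7, 11.3, 11.6 and 11.6 (sham then banded, first for wild type and then for the null).

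Symbols came from the platform annotation: 20380 probe sets had 1 gene, and the 50 member symbols all matched RefSeq (GRCm38.p6). The probe set with the highest mean log2 value stood for each gene, and 114 probe sets covered the members. Intensities under 64 were set to 64 before differences. Comparisons were of 2 arrays at 2-fold, and of the 2 banding differences. limma 3.58.1 (R 4.3.3) fitted surgery and genotype with an intensity trend. Counting and fitting were tested on simulated data. Groups came from sample titles and source names.

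Members and lists were chosen with earlier results of these data known. Named with 4 values were members past 2-fold with both arrays at 64 or above, the 10 with the highest mean, and Eif5a, Eef1a1, Eef1a2, Eef2, Eef2k, Eif4e, Eif4ebp1 and Eif2ak3 (Eif2s1 is not among the members). Members named outside that rule, and the genes named from other pathway lists, were chosen after their values were seen. Alternatives were 3 other floors, quantile and cyclic loess scaling, the mean of all probe sets, leaving out probe sets of shared type, and 1.5-fold. The number of arrays limits the precision.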

Additional observations from a re-analysis of the deposited data

Results flagged for a closer look

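Eif1a, a scanning factor, differed between the genotypes in its direction with banding: log2 -1.12 for the wild type and 1.83 for the null, 2.95 apart. The difference was not tested, since each group had 1 array. Its values were 7.28, 6.16, 6.26 and 8.08 (sham then banded, first for wild type and then for the null), so 2 of the 4 lay close to the floor of 6.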

How the results depend on the processing

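The counts of members 2-fold higher in wild-type banding (8 to 15 over all alternatives) stayed within 1.5 times of 10, but the genes behind them changed. Without probe sets of shared type 28 members were compared and 6 of the 10 were kept. Eef1d, Eif3k, Eif5a and Eif6, whose probe sets are all of that type, were lost, and Eif2s2 and Eif4a1 were gained. With the mean of all probe sets 38 were compared and 7 kept, with Eef1d, Eif3l and Eif4ebp1 lost and Eif4a1 and Eif4b gained. At 1.5-fold the other counts were 8 lower in wild-type banding, 5 higher and 2 lower in null banding, 15 higher between the sham groups, 4 higher and 7 lower between the banded groups, and 12 positive and 16 negative differences of responses. With the mean of all probe sets they were 1 lower in wild-type banding, 1 higher in null banding, 0 lower between sham groups, 1 higher between banded groups and 4 positive differences of responses. Without probe sets of shared type they were 0 higher in null banding, 0 lower between sham groups, 0 higher between banded groups and 2 positive differences of responses. With the floor at log2 7 they were 1 higher in null banding and 1 higher between banded groups. Cyclic loess gave 5 lower between banded groups. The additive fit after quantile normalization called 1 member for banding, Eif5a, with an adjusted p of 0.00253 (limma, variance fully pooled over genes). Of 31 member differences over 198 alternative fits, 163 stayed within 1.5-fold of the reported value, 34 moved more and 1 reversed, Eif5 in wild-type banding at 0.13 with the mean of all probe sets. Part of the 163 could not move. For Eef1a2 (3.77) and Eef2 (4.92), each with 1 probe set above every floor, only quantile and cyclic loess scaling could change the wild-type difference. Fits in which a gene dropped out, such as Eif5a and Eif3k without probe sets of shared type, are not in the 198. Causes were not tested. The 1.5-fold threshold counts smaller differences among the same members, 43 in wild-type banding. Other settings changed how many members were compared there. The shared-type filter left 28, the mean of all probe sets 38, the floor at log2 7 41 and the floor at log2 5 44. No paired analysis was possible because each group had 1 array, which also prevents leaving out a replicate. Signal near the floor limits Eif1a, Eif4e2, Eif6 and Eif3d. It also limits Eif5a and Eif3k, which read 6.38 and 6.22 on wild-type sham. With the floor at log2 7 their wild-type banding differences moved from 6.54 to 5.92 and from 4.64 to 3.86.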
